A study of Mus musculus with 17 samples.

Results

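A family of 7 Fc receptor and related genes was followed in F4/80hi macrophages sorted from NZB/W kidneys. NZB/W mice are hybrids of the NZB and NZW strains that develop lupus spontaneously, with immune complexes in their glomeruli. The genes were Fcgr1, Fcgr3 and Fcgr4 (activating receptors for IgG), Fcer1g (their shared signalling chain), Fcgr2b (the inhibitory receptor for IgG), Fcgrt (the neonatal Fc receptor, FcRn) and Fcrls (Fc receptor-like S). They were chosen by name as a family and not by a rule on their values, but with earlier results of these data known. All 7 were found, each with 1 probe set, among the 15780 named genes of the arrays. No filter on level was used. Values are log2 expression on Affymetrix arrays, where a difference of 1 is a doubling.

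The 17 arrays fell into 3 groups, all of strain NZB/W and all of kidney F4/80hi cells. Nephritic arrays (n = 7) came from mice that had had proteinuria for 2 to 6 weeks and had not reached terminal renal failure. Remission arrays (n = 4) came from mice sampled 3 to 4 weeks into complete remission after 1 dose of cyclophosphamide, a cytotoxic drug, with 6 doses of CTLA4Ig, which blocks T cell costimulation, and anti-CD154, an antibody to the ligand of CD40. Prenephritic arrays (n = 6), titled young, came from mice 8 to 16 weeks old. Ages of nephritic and remission mice, and the sex of all mice, are not in the labels. Age and nephritis cannot be told apart here, nor can treatment and remission. Whether replicates were separate animals is not stated either, so that p-values may reflect technical spread only.

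Activating Fc receptors bind IgG in immune complexes and signal through the immunoreceptor tyrosine-based activation motif of the Fcer1g chain, which Src family kinases phosphorylate and which then recruits the kinase Syk. In mice, Fcgr1 is the high-affinity receptor for IgG2a, Fcgr4 binds IgG2a and IgG2b, and Fcgr3 is a low-affinity receptor that also binds IgG1. Fcgr2b carries an inhibitory motif that recruits the phosphatase SHIP-1, the product of Inpp5d, and so sets a threshold for the activating receptors on the same cell. FcRn, made of Fcgrt and beta-2 microglobulin, returns IgG and albumin from endosomes to the cell surface. Fcrls is a receptor-like gene of the mouse best known as a marker of microglia.

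In the reference genome of mouse strain C57BL/6J (RefSeq, GRCm38.p6), Fcgr2b, Fcgr3, Fcgr4 and Fcer1g start on chromosome 1, Fcgr1 and Fcrls on chromosome 3 and Fcgrt on chromosome 7. Promoter windows, from 250 bases before to 50 bases after the gene start, are shown for the 4 members whose levels differed in nephritis, because Fcgr1, Fcgr4 and Fcrls were higher there while Fcgr2b was lower. Each is written 5′ to 3′ on the strand of its gene. Capitals mark GAGGAA, a core of sites for the myeloid factor PU.1, found on either strand (TTCCTC is its reverse complement), and TTCNNNGAA, the STAT element, found in Fcgr1 as TTCCCAGAA.
Fcgr1 chr3:96293920-96294219 (- strand): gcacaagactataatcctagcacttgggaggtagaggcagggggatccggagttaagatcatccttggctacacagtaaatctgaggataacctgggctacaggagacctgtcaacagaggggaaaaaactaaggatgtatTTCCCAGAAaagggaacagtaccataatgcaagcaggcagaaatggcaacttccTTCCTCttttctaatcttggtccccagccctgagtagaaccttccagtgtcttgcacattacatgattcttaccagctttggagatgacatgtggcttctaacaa
Fcgr4 chr1:171018676-171018975 (+ strand): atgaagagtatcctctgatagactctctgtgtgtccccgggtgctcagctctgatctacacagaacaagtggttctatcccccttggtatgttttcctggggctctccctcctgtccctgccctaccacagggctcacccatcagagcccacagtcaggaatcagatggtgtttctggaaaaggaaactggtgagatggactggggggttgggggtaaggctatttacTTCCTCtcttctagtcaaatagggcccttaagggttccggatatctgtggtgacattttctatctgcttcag
Fcrls chr3:87263475-87263774 (- strand): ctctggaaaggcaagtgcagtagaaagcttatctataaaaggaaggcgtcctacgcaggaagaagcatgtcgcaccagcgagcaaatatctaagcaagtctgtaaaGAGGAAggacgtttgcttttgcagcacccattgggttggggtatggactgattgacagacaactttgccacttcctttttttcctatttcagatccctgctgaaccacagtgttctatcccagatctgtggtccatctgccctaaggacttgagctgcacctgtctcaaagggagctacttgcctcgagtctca
Fcgr2b chr1:170976022-170976321 (- strand): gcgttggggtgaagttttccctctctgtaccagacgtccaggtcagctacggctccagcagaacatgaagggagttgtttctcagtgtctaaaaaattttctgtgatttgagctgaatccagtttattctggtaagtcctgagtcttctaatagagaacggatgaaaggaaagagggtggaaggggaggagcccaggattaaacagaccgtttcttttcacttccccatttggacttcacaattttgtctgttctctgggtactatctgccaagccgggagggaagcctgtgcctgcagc

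GAGGAA was present in the windows of 4 of the 7 members and in 28.3% of 32851 windows of the same length. Positions are those of the first base of the match on the strand of the gene, whether it read GAGGAA or TTCCTC. They were −55 from the gene start in Fcgr1, −22 in Fcgr4 and −144 in Fcrls, and −6 and −15 in the overlapping windows of the 2 starts of Fcgr3. TTCNNNGAA was present in Fcgr1 alone among the members, with its first base at −109, and in 8.3% of all windows. Fcgr2b held neither motif in its window. No base of the 2 motifs overlapped in any member. These matches describe the reference sequence. NZB mice are known to carry a variant Fcgr2b promoter, and the sequence of the NZB/W alleles was not examined.

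The first comparison asked which of these receptors change with nephritis, and it divided the family. Fcrls was 3.84-fold, Fcgr1 1.55-fold and Fcgr4 1.48-fold higher in nephritic than in prenephritic arrays, while Fcgr2b was 1.44-fold lower. Thus 3 of 7 members rose and 1 fell at an adjusted p under 0.05 (limma), against 12.1% of all 15780 genes called in either direction, 6.74% higher and 5.32% lower. Fcgr3, Fcer1g and Fcgrt did not pass. The median difference of the 7 members was 0.23, against −0.02 over all genes tested. In such bulk samples, fewer cells of a type and less RNA per cell cannot be told apart.

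**Figure D1:**
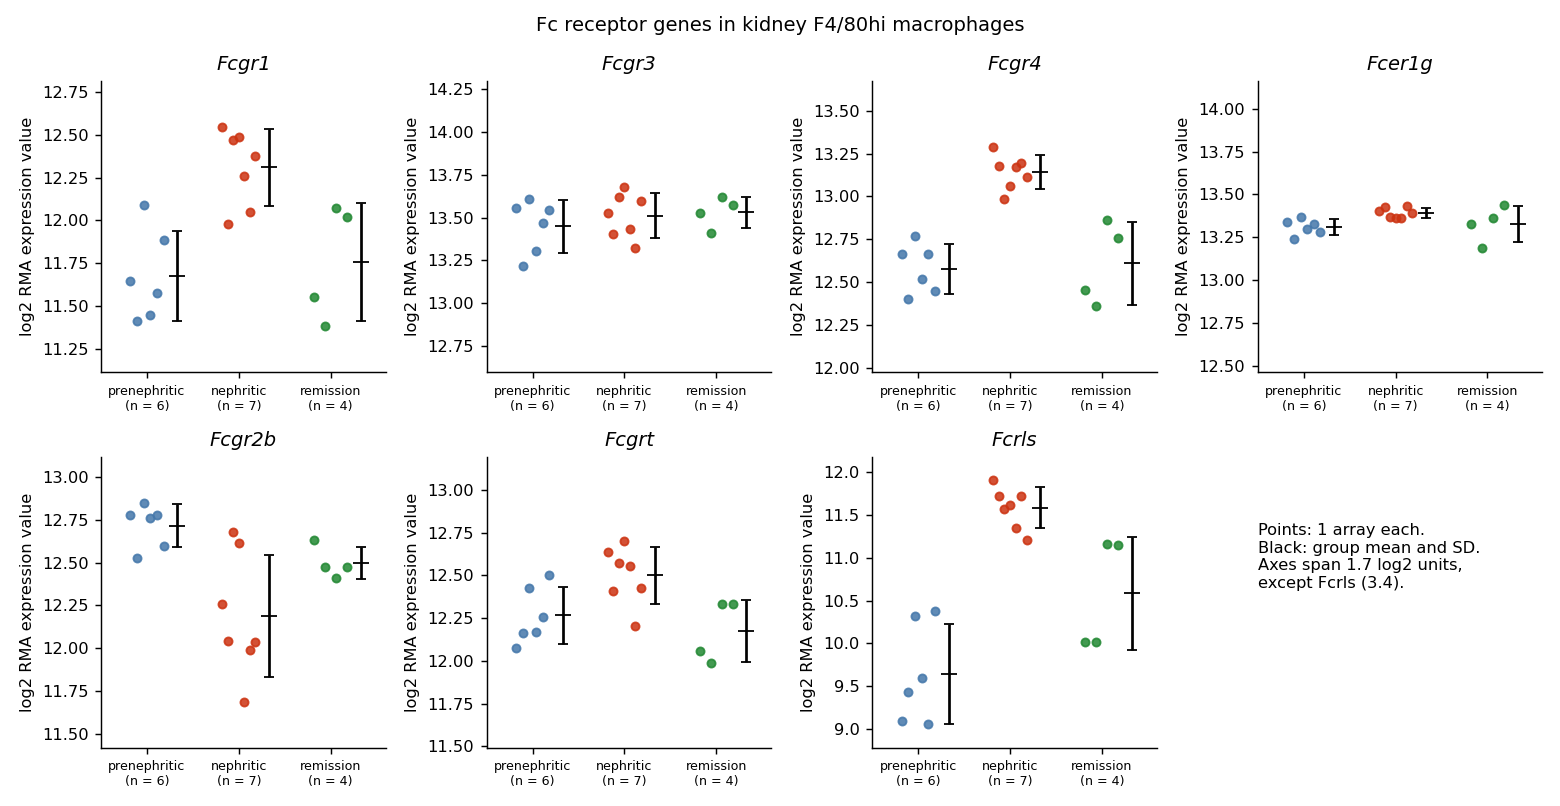
Log2 expression value (vertical axis) of each of the 7 members in every array, by group, with 1 point per array and the group mean and SD in black. The axes span the same number of log2 units except for Fcrls, where it is doubled. The nephritic points of Fcgr4 and Fcrls lie above every point of the other groups, and Fcer1g and Fcgr3 show little spread between groups.

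Among the activating receptors, Fcgr4 separated the groups. It had a lowest, median and highest value of 12.98, 13.17 and 13.29 in the 7 nephritic arrays, against 12.40, 12.59 and 12.77 in the 6 prenephritic arrays. Every nephritic array lay above every prenephritic array, which held in the same direction for 3.07% of all genes. The difference was 0.57 ± 0.09 (SE), with an adjusted p of 0.00047.

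Fcgr1 had a lowest, median and highest value of 11.98, 12.37 and 12.55 in nephritic arrays, against 11.41, 11.61 and 12.09 in prenephritic arrays. The groups overlapped through the highest prenephritic value, that of replicate 3. The difference was 0.63 ± 0.14, with an adjusted p of 0.0070. Fcgr4 and Fcgr1 stayed called in each of 28 alternative fits, between 0.50 and 0.60 for Fcgr4 and between 0.57 and 0.71 for Fcgr1.

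Fcgr3 gave 13.32, 13.53 and 13.68 as the lowest, median and highest nephritic value, against 13.22, 13.51 and 13.61 in prenephritic arrays. The groups overlapped over nearly their whole range. The difference was 0.06 ± 0.08 (95% interval −0.10 to 0.23, adjusted p = 0.68).

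Fcer1g, without which the mouse activating receptors are not expressed at the cell surface, was one of the steadiest members. It had 13.36, 13.39 and 13.43 as the lowest, median and highest value in nephritic arrays, against 13.24, 13.31 and 13.37 in prenephritic arrays. The groups overlapped only narrowly, but the difference was small, at 0.08 ± 0.05 (95% interval −0.02 to 0.18, adjusted p = 0.28). Group means of Fcer1g lay at percentiles 99.6 to 99.7 of all genes, and those of Fcgr3 at 99.7 to 99.8. Whether signals this bright understate a change was not tested.

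The inhibitory receptor Fcgr2b fell. Its lowest, median and highest value was 11.69, 12.04 and 12.68 in nephritic arrays, against 12.53, 12.77 and 12.85 in prenephritic arrays. Nephritic replicates 1, 2, 5, 6 and 7 lay below every prenephritic array, and replicates 3 and 4, at 12.68 and 12.62, lay within the prenephritic range. The difference was −0.53 ± 0.13, with an adjusted p of 0.015. The spread was wider in nephritic arrays (SD 0.36, n = 7) than in prenephritic arrays (SD 0.12, n = 6). The call was lost without prenephritic replicate 5 and nephritic replicate 6 together, arrays that earlier results of these data set apart on cytokine genes (−0.48, adjusted p = 0.064), and it was kept when either was left out alone.

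Fcgrt had 12.20, 12.56 and 12.70 as its lowest, median and highest nephritic value, against 12.08, 12.21 and 12.50 in prenephritic arrays. The groups overlapped, and the difference of 0.23 ± 0.09 did not pass (95% interval 0.03 to 0.44, adjusted p = 0.12). Its partner B2m, which encodes beta-2 microglobulin, was at 13.78 ± 0.04 (SD, n = 7) in nephritic arrays and 13.81 ± 0.03 (SD, n = 6) in prenephritic arrays, a difference of −0.03 ± 0.04 (adjusted p = 0.72).

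Fcrls changed most among the members. It had 11.21, 11.62 and 11.91 as its lowest, median and highest value in nephritic arrays, against 9.05, 9.52 and 10.38 in prenephritic arrays. No values overlapped, and the lowest nephritic array exceeded the highest prenephritic one. The difference of 1.94 ± 0.25 (adjusted p = 0.00013) ranked 45 from the top of all 15780 genes, and it lay between 1.80 and 2.09 in the 28 alternative fits, called in each.

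**Figure D2:**
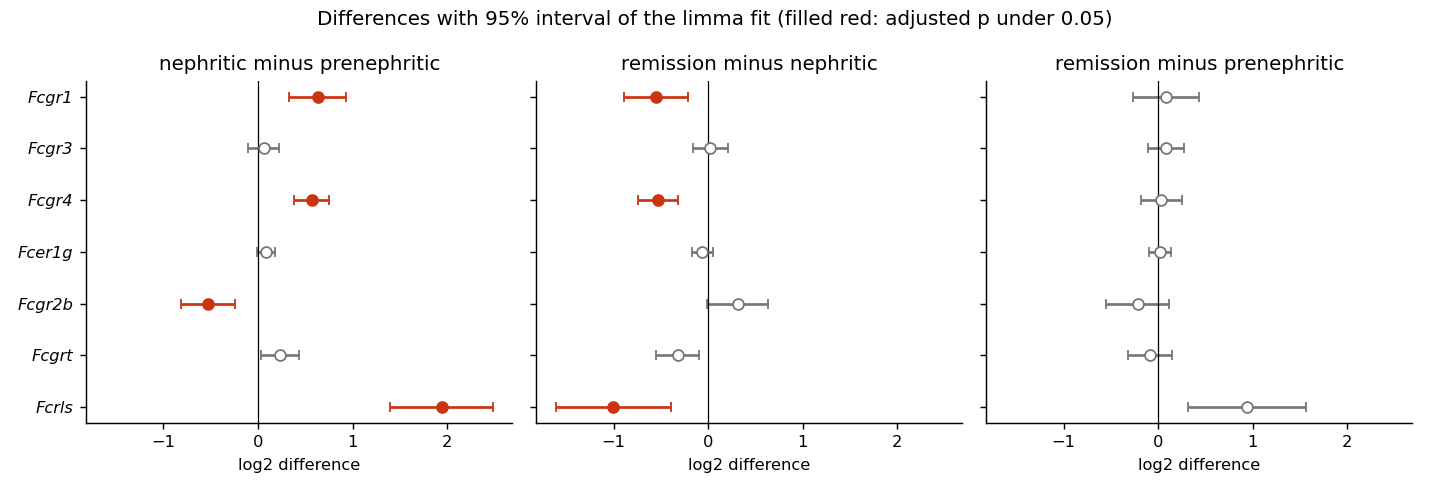
Log2 difference between groups (horizontal axis) for each of the 7 members in the 3 comparisons, with points at the fitted difference and bars for its 95% interval; filled red points have an adjusted p under 0.05. Fcgr1, Fcgr4 and Fcrls lie right of 0 in nephritic minus prenephritic and left of 0 in remission minus nephritic, and no point is filled in remission minus prenephritic.

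The second comparison asked how levels in remission stand to those in nephritis. Fcgr4 was 1.45-fold, Fcgr1 1.47-fold and Fcrls 2.00-fold lower in remission than in nephritic arrays, so 3 of 7 members fell and 0 rose, against 13.3% of all genes called, 10.0% lower and 3.27% higher. Fcgr2b, Fcgr3, Fcer1g and Fcgrt did not pass. The median of the members was −0.32, against −0.03 over all genes. Both comparisons share the nephritic arrays, so an opposite sign in them is not separate evidence.

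Fcgr4 was at 12.45, 12.36, 12.87 and 12.76 in remission replicates 1 to 4, each below the lowest of the 7 nephritic arrays (12.98). The same absence of overlap, in that direction, was found for 6.95% of all genes. The difference was −0.53 ± 0.10, with an adjusted p of 0.0021, and it stayed called when any 1 array was left out.

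Fcrls was at 10.02, 10.02, 11.16 and 11.15 in remission replicates 1 to 4, each below the lowest nephritic array (11.21), though replicates 3 and 4 only narrowly so. In remission it fell by 1.00 ± 0.28, with an adjusted p of 0.029. Fcgr1 was at 11.55, 11.38, 12.07 and 12.02 in the same arrays, against a lowest nephritic value of 11.98, so its groups overlapped. Its difference was −0.55 ± 0.16, with an adjusted p of 0.031.

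The 4 remission arrays formed an uneven group. Replicates 1 and 2 had the lower values of Fcgr1, Fcgr4, Fcgrt and Fcrls, and replicates 3 and 4 the higher. Without replicate 1, the differences of Fcgr1 and Fcrls were −0.48 (adjusted p = 0.11) and −0.81 (adjusted p = 0.12), and without replicate 2 they were −0.43 (adjusted p = 0.15) and −0.81 (adjusted p = 0.13). Without nephritic replicate 1 they were −0.51 (adjusted p = 0.057) and −0.95 (adjusted p = 0.053). Leaving out nephritic replicate 3, 4 or 7 also ended the call of Fcgr1, with adjusted p of 0.053, 0.057 and 0.052.

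Remission replicates 1 and 2 also had the highest tubule scores. The score is the mean, in log2 units centred over all arrays, of 16 genes of kidney tubule cells, and it was 1.07, 1.40, 0.65 and −0.05 in remission replicates 1 to 4. It ranged from −2.24 to 0.62 in nephritic arrays and from −0.96 to 0.80 in prenephritic arrays. With the score as a covariate, Fcgr4 stayed lower in remission than in nephritis (−0.49 ± 0.12, adjusted p = 0.015), Fcgr1 was at −0.35 ± 0.17 (adjusted p = 0.22) and Fcrls at −0.91 ± 0.34 (adjusted p = 0.12). When nephritic replicate 3 and remission replicates 1 and 2, which had the most extreme scores, were left out, 0 members passed the limma test, and 1 of 7 had an unadjusted p under 0.05, against 13.2% of all genes with the same arrays. Fcgr4 was then at −0.36 (adjusted p = 0.098), Fcgr1 at −0.23 (adjusted p = 0.68) and Fcrls at −0.44 (adjusted p = 0.65). The nephritic minus prenephritic calls of all 4 members held under both settings.

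**Figure D3:**
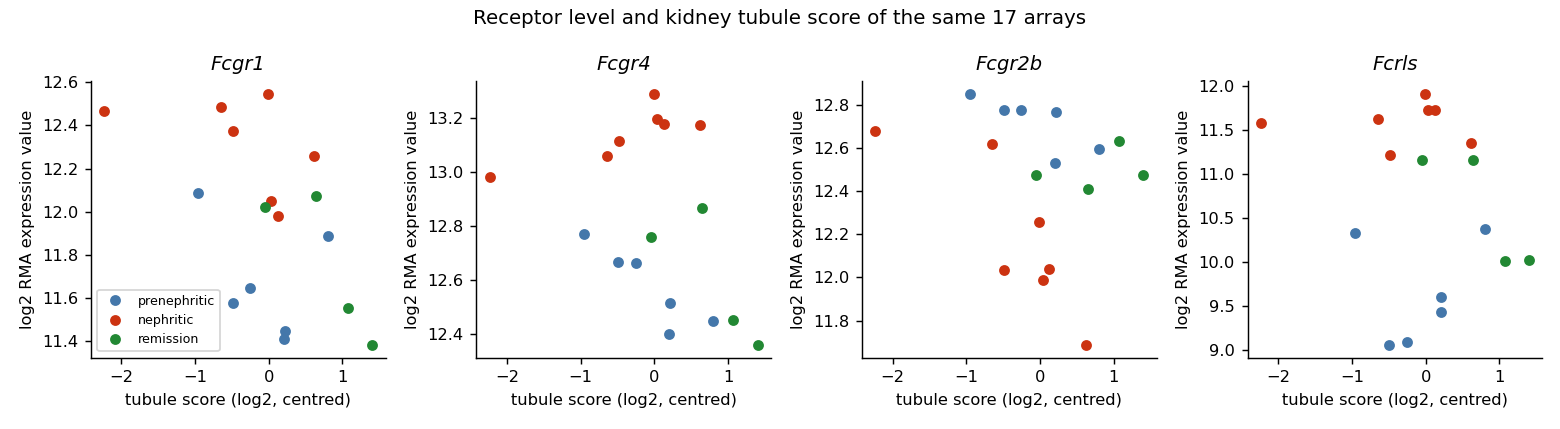
Log2 expression value of 4 members (vertical axis) against the tubule score of the same array (horizontal axis, centred log2 units), with 1 point per array coloured by group. Remission replicates 1 and 2 lie at the right, at 1.07 and 1.40, and nephritic replicate 3 at the far left, at −2.24.

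Of the other members, Fcgr2b was at 12.63, 12.48, 12.41 and 12.47 in remission replicates 1 to 4, within the nephritic range. Its difference was 0.31 ± 0.15 (95% interval −0.01 to 0.63, adjusted p = 0.18), and 0.57 ± 0.13 with the tubule score as a covariate (adjusted p = 0.013). Fcgrt was at 12.06, 11.99, 12.33 and 12.33 in remission arrays, with a difference of −0.32 ± 0.11 that fell just short of the threshold (adjusted p = 0.053) and passed in 7 of 28 alternatives. B2m differed by 0.03 ± 0.04 (adjusted p = 0.73).

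Fcgr3 was at 13.52, 13.41, 13.62 and 13.57 and Fcer1g at 13.33, 13.19, 13.36 and 13.44 in remission replicates 1 to 4. Both groups of values overlapped those of nephritic arrays. The differences were 0.02 ± 0.09 for Fcgr3 (95% interval −0.16 to 0.21, adjusted p = 0.91) and −0.06 ± 0.05 for Fcer1g (95% interval −0.17 to 0.05, adjusted p = 0.46).

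The third comparison set remission beside the prenephritic state. None of the 7 members passed the limma test (0 called, against 0.00634% of all genes, which is 1 gene), and 1 of 7 had an unadjusted p under 0.05, against 18.7% of all genes. That member was Fcrls, at 0.94 ± 0.29 (unadjusted p = 0.0054, adjusted p = 0.18). Its 95% interval ran from 0.31 to 1.57, with remission replicates 3 and 4 above every prenephritic array and replicates 1 and 2 within the prenephritic range. Without the 3 arrays of extreme tubule score, replicates 1 and 2 among them, the difference of Fcrls was 1.51 (adjusted p = 0.20), that of Fcgr1 0.37 and that of Fcgr4 0.24, against 0.08 and 0.03 with all arrays (adjusted p = 0.99 for Fcgr1 and 0.96 for Fcgr4 without them).

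Differences of the other 6 members lay between −0.22 ± 0.15 for Fcgr2b and 0.08 ± 0.09 for Fcgr3. The interval for Fcgr1 ran from −0.27 to 0.43 and that for Fcgr4 from −0.19 to 0.25. The interval of Fcgr2b, from −0.55 to 0.11, included its nephritic difference of −0.53, and those of Fcgr1, Fcgr4 and Fcrls did not include theirs. In Fcgr1, Fcgr4 and Fcrls the group means were therefore ordered with nephritic highest, then remission, then prenephritic, and the last 2 did not differ past the threshold. In Fcgr2b the order was the reverse, with neither neighbour of remission differing past the threshold. Fcgr3, Fcer1g and Fcgrt showed no pair of groups that did.

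Activating and inhibitory receptors can act on the same cell, so their unequal change was tested within arrays. Bulk arrays show this change for the sample as a whole and not for single cells. For each array the log2 value of Fcgr2b was subtracted from that of Fcgr1, Fcgr3, Fcgr4 and Fcer1g, and group means were compared by exact two-sided permutation tests, with adjustment over the 12 tests. Probe sets differ in brightness per molecule, so the differences show a shift between groups and not which receptor is more abundant. All 12 use Fcgr2b and are not separate evidence.

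The difference of Fcgr4 and Fcgr2b was 0.96 ± 0.43 (SD, n = 7) in nephritic arrays and −0.14 ± 0.06 (SD, n = 6) in prenephritic arrays, a shift of 1.09 (exact permutation p = 0.0017, adjusted p = 0.0070). For Fcgr1 it was 0.12 ± 0.28 in nephritic and −1.04 ± 0.25 in prenephritic arrays, a shift of 1.16 (exact permutation p = 0.00058, the smallest that 1716 arrangements allow, adjusted p = 0.0070). Neither pair of groups overlapped. The ratio of Fcgr1 to Fcgr2b signal thus shifted 2.24-fold and that of Fcgr4 to Fcgr2b 2.14-fold. Fcgr3 and Fcer1g, whose own differences did not pass, shifted by 0.59 (exact permutation p = 0.0017, adjusted p = 0.0070) and 0.61 (exact permutation p = 0.0058, adjusted p = 0.014) against Fcgr2b. Each of these shifts contains the difference of Fcgr2b itself, −0.53, which makes up most of those of Fcgr3 and Fcer1g. How many of all genes would shift as far against Fcgr2b was not counted, so the shifts are not particular to activating receptors.

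**Figure D4:**
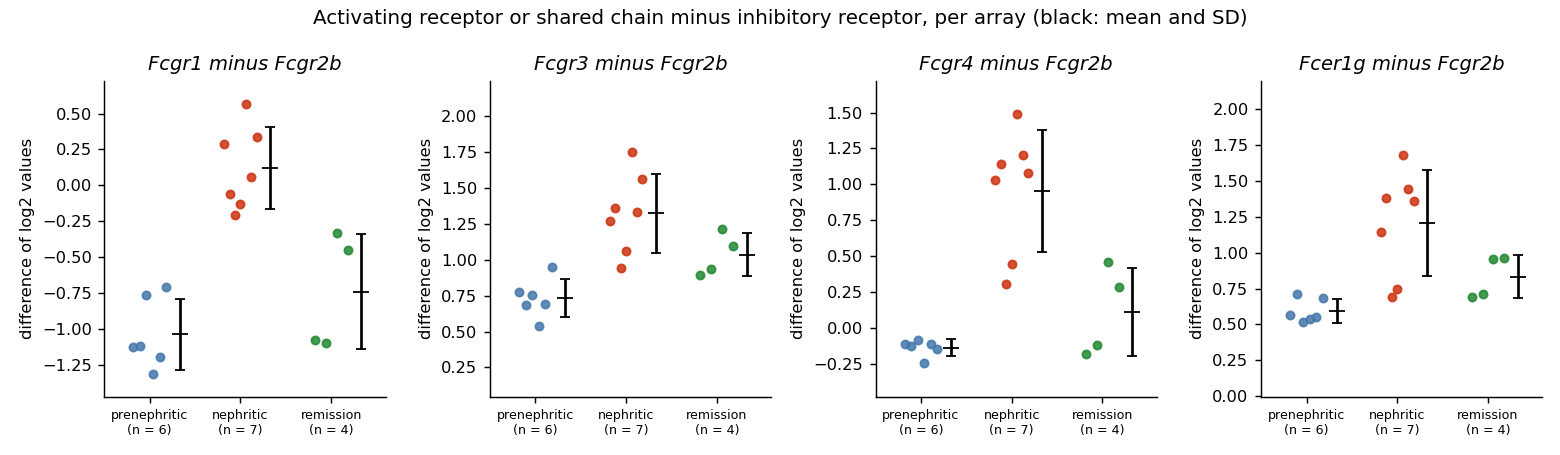
Log2 value of Fcgr1, Fcgr3, Fcgr4 or Fcer1g minus that of Fcgr2b in the same array (vertical axis), by group, with 1 point per array and the group mean and SD in black; the position of 0 has no meaning across probe sets. Nephritic points lie highest on average in each panel and do not overlap prenephritic points for Fcgr1 and Fcgr4, and the 2 lowest nephritic points for Fcgr4 are replicates 3 and 4.

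Fcgr1 minus Fcgr2b was −0.74 ± 0.40 (SD, n = 4) in remission arrays and 0.12 ± 0.28 (SD, n = 7) in nephritic arrays, a shift of −0.86 (exact permutation p = 0.0030, the smallest that 330 arrangements allow, adjusted p = 0.0091). Fcgr4 minus Fcgr2b was 0.11 ± 0.31 in remission arrays and 0.96 ± 0.43 in nephritic arrays, a shift of −0.85 (exact permutation p = 0.018, adjusted p = 0.029). That call was lost without remission replicate 1, 2 or 4, at adjusted p from 0.050 to 0.063. The shifts of −0.29 for Fcgr3 and −0.38 for Fcer1g did not pass (exact permutation p = 0.082 and 0.085, adjusted p = 0.099 for both).

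Fcgr3 minus Fcgr2b was 1.03 ± 0.15 (SD, n = 4) in remission arrays and 0.73 ± 0.13 (SD, n = 6) in prenephritic arrays, a shift of 0.30. Fcer1g minus Fcgr2b was 0.83 ± 0.15 in remission arrays and 0.59 ± 0.08 in prenephritic arrays, a shift of 0.24. Both had an exact permutation p of 0.019 and an adjusted p of 0.029. Both were lost without prenephritic replicate 1 or without remission replicate 3 or 4, at adjusted p from 0.054 to 0.071. Fcgr1 and Fcgr4 shifted by 0.30 and 0.25 and did not pass (exact permutation p = 0.17 and 0.090, adjusted p = 0.17 and 0.099). Without the 3 arrays of extreme tubule score, which left remission replicates 3 and 4, they shifted by 0.64 and 0.51. Both then passed (exact permutation test, adjusted p = 0.048 for each).

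Genes downstream of the activating receptors were described next. Of 27 measured genes of activating Fc signalling, 7 rose and 1 fell in nephritic arrays, against 6.74% of all genes called higher and 5.32% lower, with a median difference of 0.09 against −0.02 over all genes. Fgr, a Src family kinase, rose by 1.37 ± 0.21 (adjusted p = 0.00053), and Fyn, another, by 0.87 ± 0.14 (adjusted p = 0.00054). Pik3r5, a regulatory subunit of phosphoinositide 3-kinase gamma, rose by 1.08 ± 0.13 (adjusted p = 7.3e-05), and Lcp2, the adaptor SLP-76, by 0.73 ± 0.10 (adjusted p = 0.00022). Sos1, an exchange factor for Ras, rose by 0.53 ± 0.11 and Rac2, a GTPase of phagocytes, by 0.52 ± 0.12.

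Syk itself did not differ past the threshold, with 10.67 ± 0.13 (SD, n = 7) in nephritic arrays and 10.54 ± 0.29 (SD, n = 6) in prenephritic arrays (adjusted p = 0.59). The gene that fell was Vav3, a guanine nucleotide exchange factor, by 0.28 ± 0.09 (adjusted p = 0.047). Its call was lost in 16 of 28 alternatives, with an adjusted p of up to 0.11 when 1 array was left out.

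In remission, 0 of the 27 were higher and 9 lower than in nephritic arrays, against 3.27% of all genes called higher and 10.0% lower, with a median of −0.23 against −0.03 over all genes. Fgr was lower by 1.59 ± 0.24, Fyn by 1.05 ± 0.15, Pik3r5 by 1.01 ± 0.15, Lcp2 by 0.98 ± 0.12 and Rac2 by 0.61 ± 0.14, all of which had risen in nephritis. Syk was lower by 0.57 ± 0.14 (adjusted p = 0.012), at 10.09 ± 0.27 (SD, n = 4) in remission. The call of Syk was lost without remission replicate 2 (−0.46, adjusted p = 0.063), with the tubule score as a covariate (−0.38, adjusted p = 0.11) and without the 3 arrays of extreme score (−0.34, adjusted p = 0.43). That of Rac2 was lost under the last 2 settings (adjusted p = 0.067 and 0.27). The count was 4 without those 3 arrays of extreme tubule score and 5 with that score as a covariate. Without 1 array it ran from 5 to 13.

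**Figure D5:**
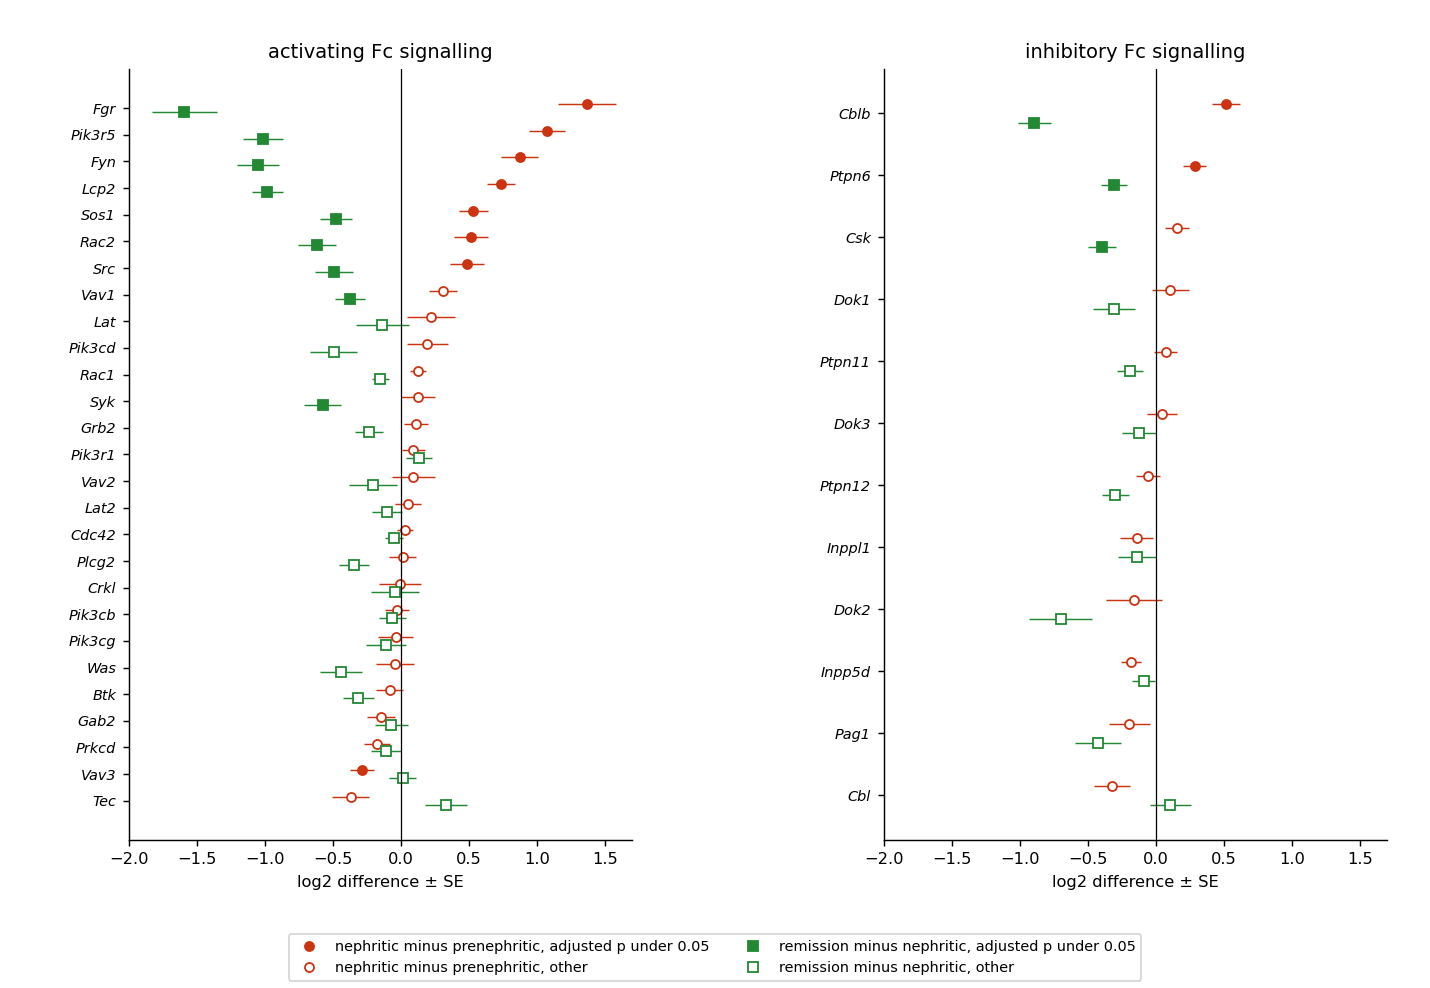
Log2 difference ± SE (horizontal axis) of the measured genes of activating (left) and inhibitory (right) Fc signalling in nephritic minus prenephritic arrays (circles) and remission minus nephritic arrays (squares), filled where the adjusted p is under 0.05. Fgr, Pik3r5, Fyn and Lcp2 lie farthest from 0 on both sides, and most genes of both lists are open.

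Of 12 genes that oppose Fc signalling, 2 rose and 0 fell in nephritic arrays, a share near the 12.1% of all genes called, with a median of 0.00 against −0.02 over all genes. Cblb, a ubiquitin ligase, rose by 0.52 ± 0.11 (adjusted p = 0.0040) and Ptpn6, the phosphatase SHP-1, by 0.29 ± 0.08 (adjusted p = 0.035). The call of Ptpn6 was lost in 10 of 28 alternatives, among them leaving out prenephritic replicate 2, 4, 5 or 6 or nephritic replicate 1, 4, 5 or 7, with an adjusted p of up to 0.077 there. Inpp5d, the phosphatase recruited by Fcgr2b, was at 10.52 ± 0.09 (SD, n = 7) in nephritic arrays and 10.70 ± 0.12 (SD, n = 6) in prenephritic arrays, a difference of −0.18 ± 0.08 that did not pass (adjusted p = 0.14). In remission 3 of the 12 were lower than in nephritic arrays, against 10.0% of all genes, Cblb by 0.89 ± 0.12, Csk, a kinase that restrains Src family kinases, by 0.40 ± 0.10 and Ptpn6 by 0.31 ± 0.09. The median was −0.30, against −0.03 over all genes. The call of Ptpn6 was lost in 13 of 28 alternatives, among them leaving out nephritic replicate 1, 3, 4, 5 or 7 or remission replicate 1, 2 or 3, with an adjusted p of up to 0.19 there. That of Csk was lost in 4, without remission replicate 1 (adjusted p = 0.068) or 2 (adjusted p = 0.083), with the tubule score (adjusted p = 0.13) and without the 3 arrays (adjusted p = 0.48), and that of Cblb in 0.

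Other receptors use the Fcer1g chain. Of 6 measured, 3 rose in nephritic arrays and the same 3 were lower in remission, all of the Dectin-2 family of C-type lectins. Of all genes, 6.74% were called higher in nephritic than in prenephritic arrays and 10.0% lower in remission than in nephritic arrays. Clec4d (MCL) was at 11.89 ± 0.47 (SD, n = 7) in nephritic arrays, against 9.14 ± 0.65 (SD, n = 6) in prenephritic arrays. Clec4e (Mincle) was at 9.04 ± 0.74 in nephritic and 6.46 ± 0.99 in prenephritic arrays, and Clec4n (Dectin-2) at 11.05 ± 0.27 in nephritic and 9.09 ± 0.33 in prenephritic arrays (adjusted p from 4.3e-06 to 0.00059). In remission they were at 9.76 ± 0.51, 6.67 ± 0.49 and 8.87 ± 0.42 (SD, n = 4), and without the 3 arrays of extreme tubule score the call of Clec4e was lost (adjusted p = 0.090). Their differences, between 1.97 and 2.74 in nephritic minus prenephritic arrays, stood beside the 0.08 of the chain itself. The other 3, Oscar, Gp6 and Ncr1, had means below the lower quartile of all values (4.99) in every group.

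Among 9 other immunoglobulin receptors measured, 1 rose and 0 fell in nephritic arrays, a share near the 12.1% of all genes called. It was Fcrl1, known as a B cell gene, at 8.08 ± 0.34 (SD, n = 7) in nephritic arrays and 7.08 ± 0.36 (SD, n = 6) in prenephritic arrays (difference 1.00 ± 0.18, adjusted p = 0.0019). It was lower in remission by 1.16 ± 0.21 (adjusted p = 0.0017, and 0.084 without the 3 arrays of extreme tubule score). Fcamr, a receptor for IgA and IgM, was called higher in remission than in nephritic arrays (adjusted p = 0.038, lost in 12 of 27 alternatives), but its mean lay below 4.99 in all groups and no fold is given. The chains of the mast cell IgE receptor other than Fcer1g, Fcer1a and Ms4a2, also lay below 4.99 in all groups. Between remission and prenephritic arrays, 0 genes of the 5 lists of the Fc pathway passed the limma test. The counts at an unadjusted p under 0.05 were 7 of 27 activating, 6 of 12 inhibitory, 1 of 9 other receptors, 0 of 6 that pair with Fcer1g and 0 for B2m, beside 18.7% of all genes.

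Other cell types also carry these receptors, so their markers are given beside the results. For every marker list below, the shares of all genes called in nephritic minus prenephritic arrays were 6.74% higher and 5.32% lower. In remission minus nephritic arrays they were 3.27% higher and 10.0% lower. Macrophage markers (Adgre1, the gene of the sorted surface marker, Csf1r, Cd68, Mrc1, Cx3cr1 and Ptprc) had 0 of 6 called in each comparison (1, 0 and 0 at an unadjusted p under 0.05 in limma, in the order given above, beside 25.3%, 29.4% and 18.7% of all genes), and their mean lay between 12.49 and 12.80 in every array. In nephritis 1 was called in 7 of 28 alternatives. These were without prenephritic replicate 2, nephritic replicate 3 or remission replicate 4, and without the 3 arrays of extreme tubule score. The others were quantile normalization repeated, a trended robust prior and the tubule score as a covariate. The mean of 10 B cell and plasma cell genes ranged from 7.00 to 8.01 in nephritic arrays, against 6.22 to 7.49 in prenephritic arrays, with 5 higher and 1 lower, and it ranged from 6.57 to 6.88 in remission arrays. In remission minus nephritic arrays 1 was higher and 3 lower. The number called there was 2 without remission replicate 1, and 1 without the 3 arrays of extreme tubule score. Blk and Pax5 lay below 4.99 in every group, and Ms4a1 and Pou2af1 in prenephritic and remission arrays. Of 9 monocyte genes 5 rose (mean from 8.85 to 9.77 in nephritic arrays, against 8.25 to 9.19 in prenephritic arrays) and the list had 5 lower in remission (8.32 to 8.91). The remission count was 1, 0 and 1 without remission replicate 1, 2 and 3, and 0 without the 3 arrays of extreme tubule score. It was 2 with the tubule score as a covariate. The nephritic count was 3 without prenephritic replicate 5 and nephritic replicate 6 together. Chil3 and Vcan lay below 4.99 in every group. Of 8 neutrophil genes 0 were called or had an unadjusted p under 0.05 in any comparison, and Mpo, Elane, Cxcr2 and Ngp lay below 4.99 in every group.

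Of 7 NK cell genes 1 fell in nephritic arrays and 2 were lower in remission than in nephritic arrays. The remission count was 1 without remission replicate 1, 2 or 3, and 0 without the 3 arrays of extreme tubule score. It was 1 when genes with a mean over all arrays below 4.99 were left out. The nephritic count was 0 without prenephritic replicate 5 and nephritic replicate 6 together. Eomes and Ncr1 lay below 4.99 in every group, and Gzmb in prenephritic and remission arrays. Of 9 mast cell genes 3 fell and 3 were higher in remission than in nephritic arrays, and the remission count was 1 without remission replicate 2. Of 6 T cell genes 4 rose and 5 were lower in remission. Cd8a lay below 4.99 in every group, Cd3g in prenephritic and remission arrays and Cd3d in remission arrays. When genes with a mean over all arrays below 4.99 were left out, 2 rose and 3 were lower in remission. The nephritic count was 1 without prenephritic replicate 1 or 3 or nephritic replicate 1, and 2 without prenephritic replicate 5 or 6 or nephritic replicate 2, 6 or 7. The remission count was 3 without remission replicate 1 or 2, and 2 without the 3 arrays of extreme tubule score. Among the T cell genes that rose, the call of Cd8a was lost in 17 of 27 alternatives and that of Il7r in 13 of 28.

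The mean of 16 tubule genes ranged from 7.55 to 10.40 in nephritic, from 8.83 to 10.58 in prenephritic and from 9.73 to 11.19 in remission arrays. In each group 0 of them lay below 4.99. Array medians over all probe sets lay between 7.49 and 7.68, so tubule transcripts gave a strong signal in these sorted samples. Of 16 tubule genes 0 were called in nephritis (1 at an unadjusted p under 0.05, median difference −0.25). In remission minus nephritic arrays 2, Calb1 and Pvalb, were called higher, 10 had an unadjusted p under 0.05, against 29.4% of all genes, and the median was 1.18. The number called was 0 without remission replicate 1 or 2, 6 without nephritic replicate 5 and 5 without remission replicate 4. In remission minus prenephritic arrays the median of the tubule genes was 0.85, with 0 called and 3 at an unadjusted p under 0.05. Of 10 endothelial genes, Pecam1 rose in nephritis and was lower in remission, where Ehd3 was higher. Of 5 podocyte genes Ptpro fell in nephritis, a call lost without prenephritic replicate 1, 3 or 5 or nephritic replicate 1. Between remission and prenephritic arrays, 0 genes of the 10 marker lists were called, and from 0 to 4 a list had an unadjusted p under 0.05. Without prenephritic replicate 6, 1 NK cell and 1 T cell gene were called there. The part of these cells in the receptor values was not tested.

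The members did not vary together as 1 block. Across deviations from the group means of the 17 arrays, which share normalization and tubule content, Fcgr1 went with Fcgrt (r = 0.85) and Fcgr3 (r = 0.82), and Fcgr4 with Fcer1g (r = 0.80). Fcgr2b and Fcgr4 had r = −0.61 over the 7 nephritic arrays and r = 0.92 over the 6 prenephritic arrays. These values are descriptions of few arrays.

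Genes with the most similar pattern were taken as those with the highest Pearson r over the 17 arrays, group differences included. For Fcgr4 these were Babam2 (r = 0.98), Clec4a3 (0.96) and Acp2 (0.96), and for Fcgr1 they were Tmem106a (0.94), Grn (0.93) and P2rx4 (0.93). Fcrls was followed by Sorbs3 (0.95), Tspan4 (0.95) and Olfml3 (0.95), and Fcgrt by Rcn3 (0.94), Btnl2 (0.91) and Tmem106a (0.91). Fcgr2b had Serpinf1 (0.93), Lgi4 (0.92) and Sft2d2 (0.91). Fcgr3 had C1qa (0.89), Pros1 (0.88) and C1qc (0.87), and Fcer1g had Cadm1 (0.88), Fgl2 (0.88) and Rrbp1 (0.88). In deviations from the group means, the r of these 21 pairs lay between 0.80 and 0.91. The pairs were picked for their high r in the same arrays, so this range is a description and not separate evidence.

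Fcgr2b, Fcgr3 and Fcgr4 are similar in sequence, so a share of a signal may come from a related transcript, which was not tested. Isoforms such as those of Fcgr2b are not told apart by 1 probe set per gene. Surface protein was not measured.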

How the data were processed

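Expression was measured on Affymetrix arrays, 1 per sample of biotinylated RNA. The authors deposited log2 values made by RMA (background correction, quantile normalization, summary by probe set). That is per the submitters' processing notes, without a version. No source used here gives the probe definition. RMA brings arrays to a common distribution, so changes in total RNA cannot be read, and the number of arrays limits the precision. Of 16539 probe sets, 64 were controls. The platform annotation gave 1 symbol to 15780 probe sets, several to 0 and none to 695 others, and 15752 of the named genes were found by Entrez identifier in a RefSeq table of GRCm38.p6.

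The values were used as deposited. limma 3.58.1 in R 4.3.3 fitted a mean per group to all 17 arrays (14 residual degrees of freedom), with two-sided moderated tests and Benjamini-Hochberg adjustment over 15780 genes at 0.05. Differences are ± SE, and levels ± SD. Exact permutation tests enumerated every arrangement of the arrays in Python 3.11.15. The fit was tested on simulated data. The members and lists were chosen with earlier results of these data known. Named were all members, up to 6 called genes per Fc list with the smallest p (Vav3, Syk and Inpp5d, outside that rule in some comparisons, were chosen after their values were seen), up to 4 called markers per cell type, and the 3 genes most like each member among those above the lower quartile. Promoter sequences are RefSeq's, and all 7 members matched. Alternatives changed the filter, normalization, variance prior, weights, samples, covariate and block.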

Additional observations from a re-analysis of the deposited data

How the results depend on the processing

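Of 21 member differences, 9 kept direction and side of the threshold in all 28 alternatives, and over all 588 repeats 553 did so. In nephritic minus prenephritic arrays, 4 members were called in each alternative but 1, where 3 were. The members called in remission minus nephritic arrays were 0 without the 3 arrays farthest from the median tubule score, and from 1 to 4 without 1 array. The cause of changes was not tested, beyond the smaller number of arrays where arrays were left out. With other settings, all genes called numbered 2985 (tubule score as covariate) and 1236 (without prenephritic replicate 5 and nephritic replicate 6) in nephritic minus prenephritic arrays, against 1904. In remission minus nephritic arrays they numbered 3624 (array weights), 1341 (tubule score), 281 (without the 3 arrays) and from 1021 to 2921 without 1 array, against 2100. In remission minus prenephritic arrays, against 1, they numbered 5 (quantile normalization repeated), 3 (array medians subtracted), 3 (trended robust prior), 358 (array weights), 0 (only the groups compared), 0 (tubule score), 0 (without the 2 arrays), 5 (without the 3 arrays) and from 0 to 199 without 1 array. Where 0 genes passed limma there, 2732, 1186 and 2472 had an unadjusted p under 0.05, in the order given.

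Activating signalling in remission minus nephritic arrays had 15 called with array weights, 5 with the tubule score, 4 without the 3 arrays and from 5 to 13 without 1 array, against 9. Inhibitory signalling in nephritic minus prenephritic arrays, against 2, had 1 with quantile normalization repeated, 1 after subtracting array medians, 4 with the tubule score and from 1 to 2 without 1 array. In remission minus nephritic arrays, against 3, it had 6 with array weights, 1 with the tubule score, 5 without the 2 arrays, 1 without the 3 arrays and from 1 to 5 without 1 array, and in remission minus prenephritic arrays, against 0, it had 2 with array weights and from 0 to 2 without 1 array. Other receptors had 2 called with the tubule score in nephritic minus prenephritic arrays, against 1. In remission minus nephritic arrays, against 2, they had 1 when dim genes were left out, array medians were subtracted, only 2 groups were fitted, the tubule score was added or the 2 arrays were removed, 0 without the 3 arrays (2 at an unadjusted p under 0.05), and from 1 to 2 without 1 array.

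Differences that changed sign were near 0 and never called. In remission minus prenephritic arrays, Fcgr4 was at −0.0062 with quantile normalization repeated and from −0.053 to 0.12 without 1 array, Fcgr1 from −0.024 to 0.21 and Fcer1g from −0.017 to 0.068 without 1 array, and Fcgrt at 0.066 without the 3 arrays. B2m there was at 0.021 with the tubule score, 0.0062 without the 2 arrays, 0.014 without the 3 arrays and from −0.015 to 0.016 without 1 array. In remission minus nephritic arrays, Fcgr3 was at −0.011 without the 2 arrays and from −0.011 to 0.061 without 1 array, Fcer1g at 0.0056 without the 3 arrays and B2m at −0.00041 with quantile normalization repeated. Of the 12 within-array tests, which all contain the value of Fcgr2b, 8 passed, and from 5 to 10 did without 1 array.

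Whether replicate numbers pair the samples cannot be told from these values. In their deviations, same-numbered nephritic and prenephritic arrays correlated between −0.28 and 0.81 (3 of 6 pairs over 0.1), and other pairs between −0.72 and 0.62. For nephritic and remission arrays the ranges were 0.04 to 0.55 and −0.67 to 0.75. For prenephritic and remission arrays they were −0.10 to 0.42 and −0.76 to 0.81. In the 3 comparisons, 1, 0 and 1 samples correlated best with their own number. With the replicate block, all genes called in remission minus prenephritic arrays numbered 478, activating signalling 3, inhibitory signalling 1 and other receptors 1, and B2m was at 0.0059. Other receptors had 2 called in nephritic minus prenephritic and 1 in remission minus nephritic arrays with the block. Of the 12 within-array tests 0 passed with the block, where few pairs cannot reach a small p.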
